A study of Mus musculus with 18 samples.

Results

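The granule genes described here are Gzma, Gzmb, Prf1, Nkg7, Ctsw and Srgn, 6 of the 15697 named genes in the deposited table. They were selected on gene name as components of the cytotoxic granule, with their normalized values across the 6 groups known, and Gzma in particular had already stood out for its response to peptide dose. Their levels and differences are therefore given as a description, without p-values. Transcript 3′ ends were sequenced from mouse CD4+ T cells of spleen and lymph node that carry the 5CC7 transgenic T cell receptor, which recognises a cytochrome c peptide. T cells were activated for 4 days with P13.9 cells, a fibroblast line serving as antigen-presenting cells, loaded with pPCC peptide at 0.01, 0.1, 1.0 or 10 µM. Naive CD4+ T cells without activation and P13.9 cells alone were sequenced beside them, which gives 6 groups of 3 libraries. The study's question was how T helper fate depends on the strength of the initial receptor signal. The strain, age and sex of the animals are not given in the labels, nor whether replicate libraries derive from different animals or cultures, so errors and p-values measure the spread between these libraries.

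Cytotoxic lymphocytes kill by releasing granules onto a target cell. Perforin, the product of Prf1, opens pores through which the granzymes, a family of serine proteases, reach the target's cytosol. Serglycin, the proteoglycan encoded by Srgn, packs these proteins inside the granule. The programme is best known from CD8+ T cells and natural killer cells, and a fraction of effector CD4+ T cells can also use it.

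All 6 genes matched RefSeq by symbol. On GRCm38.p6, the assembly also called mm10, Gzma lies at chr13:113093824-113100981, Gzmb at chr14:56258836-56262334, Prf1 at chr10:61297751-61304684, Srgn at chr10:62493833-62527445, Nkg7 at chr7:43437138-43438246 and Ctsw at chr19:5465043-5468628. All are annotated as protein-coding genes, and Prf1 and Srgn lie 1.19 Mb apart on the same chromosome. RefSeq promoter windows were found for 5 of the 6 genes, and none was used for Ctsw. The highest activated means of Gzma, Gzmb and Nkg7 were at 1.0, 0.1 and 10 µM, each with a range overlapping that of another dose. The 250 bases before the start site are shown for these 3 genes. Each is written 5′ to 3′ on the gene's own strand, and capitals mark matches on either strand to TCACAC or GGTGTG (T-box letters), TGTGGT (Runx letters) and TGANTCA (AP-1 letters). The windows are chr13:113100982-113101231 on the minus strand for Gzma, chr14:56262335-56262584 on the minus strand for Gzmb and chr7:43436888-43437137 on the plus strand for Nkg7.
Gzma: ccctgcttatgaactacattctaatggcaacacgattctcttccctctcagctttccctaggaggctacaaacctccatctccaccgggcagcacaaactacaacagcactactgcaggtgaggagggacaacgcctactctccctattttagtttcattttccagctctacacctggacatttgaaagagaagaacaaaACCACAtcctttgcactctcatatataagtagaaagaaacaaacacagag
Gzmb: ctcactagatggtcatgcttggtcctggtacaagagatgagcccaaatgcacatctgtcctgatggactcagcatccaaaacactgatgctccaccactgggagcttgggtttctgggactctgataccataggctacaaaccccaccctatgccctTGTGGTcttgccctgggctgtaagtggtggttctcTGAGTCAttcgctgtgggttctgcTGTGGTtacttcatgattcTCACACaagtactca
Nkg7: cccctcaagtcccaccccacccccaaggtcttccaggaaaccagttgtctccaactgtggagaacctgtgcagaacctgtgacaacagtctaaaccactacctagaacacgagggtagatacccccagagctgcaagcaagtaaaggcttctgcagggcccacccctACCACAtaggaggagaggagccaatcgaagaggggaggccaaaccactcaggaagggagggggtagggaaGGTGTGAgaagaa
The search covered 250 bases before to 50 bases after each start site. The Gzma window held 1 Runx match, beginning 50 bases before the start site, and no T-box or AP-1 match. The Gzmb window held 2 Runx matches, beginning 93 and 34 bases before the start, an AP-1 match at 58 bases and a T-box match at 15 bases. The Nkg7 window held a Runx match at 83 bases and overlapping matches to GGTGTG and TCACAC at 13 and 12 bases. Of all 32851 promoter windows of the same length, 16.8% held the Runx letters, 14.5% held TCACAC, 19.0% held GGTGTG and 7.8% held the AP-1 letters. A match of these letters is a description of the sequence and not evidence of binding.

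Levels are the authors' normalized values, in which read counts were scaled between libraries. The kit samples the end of each transcript, so values were not divided by gene length. A ratio of 2 genes is read only across groups, and not as one gene's level over another's. Recovered reads in named genes numbered 156941 to 732987 in the activated libraries, 27784 to 97752 in the naive ones and 201620 to 351978 in P13.9. A single read in naive cells equals a value of up to 6.55. A limma fit took the 7263 genes that reached a value of 5 in 3 or more of the 15 naive and activated libraries, and a gene is called at an adjusted p below 0.05 over these. Gzma, Gzmb and Srgn entered this fit, and Prf1, Nkg7 and Ctsw did not. A gene that is low in most groups enters only through the group where it is high, so the share of granule genes called is not a result about them. Libraries are named by the letter or, for naive cells, the number of their column. Fibroblast transcripts, of the kind P13.9 cells express, were present in the activated libraries. The median over 6 fibroblast genes made up 35.7 ± 9.84% of its level in P13.9 cells with peptide at 0.01 µM. With 0.1 µM it made up 9.23 ± 3.96%, with 1.0 µM 6.10 ± 2.08% and with 10 µM 2.18 ± 0.718%, and naive cells gave 3.75 ± 0.985% (SD, n = 3). The summed level of 8 T cell markers was 504 to 553 at 0.01 µM, 726 to 1014 at the 3 higher doses and 734 to 866 in naive cells, all 8 being detected in each of these groups. In these bulk libraries, fewer cells that express a gene and less RNA of it per cell cannot be told apart.

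Gzma encodes granzyme A, a protease that cuts after basic residues. Gzma was high at both middle doses and low at both end doses. At 0.01 µM its values were 8.71, 8.35 and 7.42. At 0.1 µM they were 74.1, 88.9 and 102, and at 1.0 µM they were 122, 82.2 and 70.1. At 10 µM they were 3.11, 5.82 and 4.21. The ranges at 0.1 and 1.0 µM overlapped with each other and with no other group, and every library at 10 µM lay below every library at 0.01 µM. Naive libraries held 39.3, 27.3 and 12.99, between the end and the middle doses, but from only 19 reads in all. P13.9 cells held 1.25 ± 0.333 (SD, n = 3) from 6 reads, below every T cell library.

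The order of the Gzma means was 1.0 µM, 0.1 µM, naive, 0.01 µM, 10 µM and P13.9, and the first pair was the only pair of neighbours whose ranges overlapped. Differences are log2(value + 1), first group minus second, ± SE with n = 3 per group. Gzma differed by 3.28 ± 0.34 between 0.1 and 0.01 µM, a comparison in which 5.59% of all genes tested were called. Between 1.0 and 0.1 µM it differed by 0.02 ± 0.34. Here limma called 0% of genes, as did edgeR and DESeq2 on recovered reads, and 110 genes had an unadjusted limma p below 0.05. At the last step, 10 against 1.0 µM, Gzma differed by -4.10 ± 0.34, where 0.0826% of genes, 6 of 7263, were called. Between the end doses, 10 against 0.01 µM, Gzma differed by -0.80 ± 0.34 without a call, where 8.15% of genes were called. It was called there by edgeR, at -0.88, and in the limma fit of the 4 doses without naive cells. The mean of the middle doses minus that of the end doses was 3.69 ± 0.24, where 0.757% of genes were called.

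**Figure D1:**
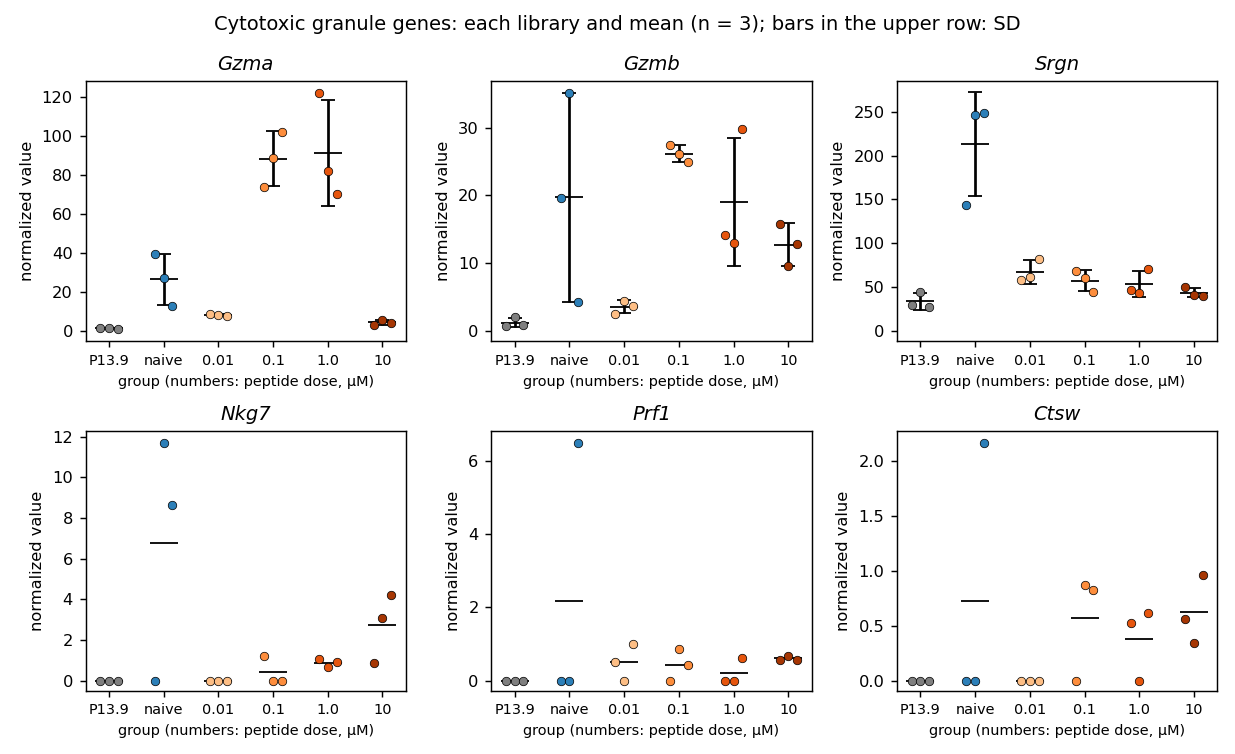
Normalized value (linear vertical axis) of each granule gene in every library, by group along the horizontal axis, with P13.9 and naive cells before the peptide doses in µM. Points are libraries, horizontal lines are means and the bars in the upper row are SD (n = 3). Gzma lies between 70.1 and 122 at the middle doses and between 3.11 and 8.71 at the end doses, and Nkg7 is at 0 in every 0.01 µM library.

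The labels' sample numbers form 2 runs. One run contains 10 and 0.1 µM, and the other contains 1.0 and 0.01 µM, naive and P13.9. The labels do not say what a run stands for. Comparisons of 10 or 0.1 µM with 1.0 µM, 0.01 µM or naive cells cross the runs. In those, here and below, dose and run cannot be told apart. Within the first run, Gzma differed by -4.07 ± 0.34 between 10 and 0.1 µM, where 0.0964% of genes were called. Within the second, it differed by 3.30 ± 0.34 between 1.0 and 0.01 µM, where 4.3% of genes were called. Each run thus holds 1 end dose and 1 middle dose, and Gzma was higher at the middle dose in both. Gzma was also taken relative to Trac, the constant chain gene of the T cell receptor. Per 100 of Trac, Gzma was 2.24 ± 0.374 with 0.01 µM peptide, 14.1 ± 3.65 with 0.1 µM, 14.9 ± 3.29 with 1.0 µM and 0.821 ± 0.259 with 10 µM, and naive cells had 4.58 ± 2.53 (SD, n = 3). All dose differences of Gzma called above were called on that scale too, and 10 against 0.01 µM was called as well, at -1.34 ± 0.37. The scale itself moved the median over all genes, which was -0.84 for 0.1 against 0.01 µM and -0.58 for 10 against 0.01 µM, as Trac was lower at 0.01 µM.

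Gzmb encodes granzyme B, which cuts after aspartate and starts apoptosis through caspases. Gzmb was low at 0.01 µM and higher in every library of the 3 other doses. At 0.01 µM its values were 2.51, 4.405 and 3.71. At 0.1 µM they were 27.4, 26.1 and 24.9, and at 1.0 µM they were 14.2, 13.04 and 29.8. At 10 µM they were 15.8, 9.59 and 12.8. Every library at the 3 higher doses lay above every library at 0.01 µM, the ranges at 0.1 and 10 µM did not overlap, and 1.0 µM overlapped with both. Naive libraries held 19.7, 35.1 and 4.33 from 14 reads and overlapped with all doses. The naive library at 4.33 held 2 of those reads. P13.9 cells held 1.22 ± 0.684 (SD, n = 3) from 6 reads.

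The order of the Gzmb means was 0.1 µM, naive, 1.0 µM, 10 µM, 0.01 µM and P13.9, and only 10 against 0.01 µM and 0.01 µM against P13.9 were neighbours whose ranges did not overlap. The Gzmb difference was 2.601 ± 0.53 for 0.1 against 0.01 µM and 2.07 ± 0.53 for 1.0 against 0.01 µM, both called. Leaving out any 0.01 µM library or library B at 0.1 µM ended the first call, at values of 2.43 to 2.74 over all libraries left out. Leaving out any 1 activated library ended the second call, at values of 1.71 to 2.27. Relative to Trac the first was called at 1.81 ± 0.53 and the second was not, at 1.34 ± 0.53. Between 10 and 0.01 µM the difference was 1.59 ± 0.53 and was not called. It was called by edgeR at 1.93, by DESeq2 at 2.01, in the fit of the 4 doses alone and when any 1 naive library was left out. The step between 1.0 and 0.1 µM was -0.53 ± 0.53 and that between 10 and 1.0 µM was -0.47 ± 0.53, each about as large as its error. Within the run of sample numbers that holds both, 10 against 0.1 µM gave -1.01 ± 0.53 without a call. The middle doses minus the end doses gave 1.54 ± 0.37, which was not called here, but was called by edgeR at 1.74 and by DESeq2 at 1.75.

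The ratio of Gzma to Gzmb was lower at the highest dose than at the others. The log2 ratio of the Gzma to the Gzmb value within a library was 1.24 ± 0.48 with 0.01 µM, 1.75 ± 0.30 with 0.1 µM, 2.33 ± 0.98 with 1.0 µM and -1.56 ± 0.82 with 10 µM (SD, n = 3). The 3 libraries at 10 µM lay between -2.35 and -0.72, below all 9 libraries of the lower doses, whose lowest was 0.92. Gzma made up 71.0% of the reads of the pair with 0.01 µM (exact 95% interval 63.1 to 78.0%), 76.7% with 0.1 µM (73.5 to 79.6%), 81.3% with 1.0 µM (78.5 to 83.8%) and 24.9% with 10 µM (19.1 to 31.4%). In naive cells the share was 57.6% (39.2 to 74.5%), with a log2 ratio of 0.74 ± 1.00. These intervals, here and below, cover counting error only. Over the 12 activated libraries, log2 values of Gzma and Gzmb had a Pearson correlation of 0.63, and over the 15 T cell libraries one of 0.60, the libraries of a group sharing dose and both genes sharing a library's depth.

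**Figure D2:**
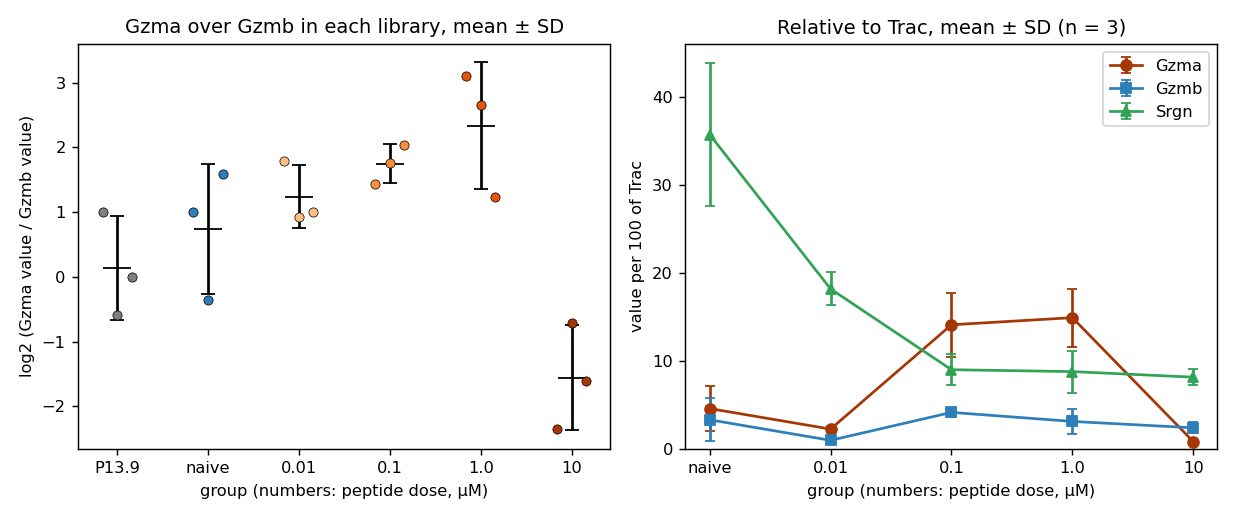
Left, the log2 ratio of the Gzma value to the Gzmb value in each library, with mean ± SD (n = 3) by group. Right, the mean value of Gzma, Gzmb and Srgn per 100 of Trac with SD (n = 3) in naive cells and at the 4 peptide doses. The 3 libraries at 10 µM have lower ratios than all libraries of the other doses, and Srgn per Trac is lower at 0.1 to 10 µM than at 0.01 µM.

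The pore-forming protein gene Prf1 was near the limit of detection in every group. It had 6 reads with 0.01 µM, 2 with 0.1 µM, 2 with 1.0 µM and 7 with 10 µM over the 3 libraries of each group. The naive group had 3 reads, all in 1 library, and P13.9 had none, which allows a value of up to 0.593 at 3 reads over the group. The pooled value at 10 µM was 0.599, with an exact Poisson 95% interval of 0.241 to 1.23, and the ratio of 10 to 0.01 µM was 1.32, with a counting interval of 0.381 to 4.77. A dose difference of Prf1 was not detectable at this depth.

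Nkg7 encodes a granule membrane protein that cytotoxic cells need for efficient degranulation. Among the doses its level was highest at 10 µM, and the mean in naive cells was higher, at 6.79. At 0.01 µM no library had a read, which allows a value of up to 0.226 at 3 reads over the group. At 0.1 µM the values were 1.22, 0 and 0, from 4 reads, and at 1.0 µM they were 1.05, 0.669 and 0.922, from 7 reads. At 10 µM they were 0.847, 3.08 and 4.21, from 34 reads. The lowest library at 10 µM lay inside the ranges at 0.1 and 1.0 µM, and library C at 10 µM held 22 of the 34 reads. Pooled over libraries, the level at 10 µM was 2.91, with an exact Poisson 95% interval of 2.02 to 4.07. That is 12.9 times the limit of 0.226 at 0.01 µM, a point value that leaves out the counting error of the 34 reads. The ratio of 10 to 1.0 µM was 3.39 (counting interval 1.48 to 9.06) and that of 10 to 0.1 µM was 4.98 (1.78 to 19.3). Naive libraries held 0, 11.7 and 8.66 from 7 reads, and P13.9 had no read.

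Ctsw encodes cathepsin W, a papain-like cysteine protease found mainly in cytotoxic lymphocytes. It had no read with 0.01 µM, 3 with 0.1 µM, 3 with 1.0 µM and 8 with 10 µM, and its values at 10 µM were 0.565, 0.343 and 0.958. Only at 10 µM did every library of a group hold a Ctsw read. The pooled value there was 0.685, with an exact Poisson interval of 0.296 to 1.35, against a limit of 0.226 at 3 reads over the 0.01 µM group. The ratio of 10 to 1.0 µM was 1.86, with a counting interval of 0.447 to 10.9. Naive cells had 1 read and P13.9 cells none.

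Srgn was measured well in every group, P13.9 cells included, and differed little between doses on the deposited scale. At 0.01 µM its values were 57.6, 61.9 and 82.3. At 0.1 µM they were 68.0, 60.1 and 43.9, and at 1.0 µM they were 46.2, 43.1 and 70.7. At 10 µM they were 49.99, 41.1 and 40.2. The ranges at neighbouring doses overlapped, while 10 and 0.01 µM did not overlap with each other. Naive libraries held 144, 246 and 249.04, all above every activated library. P13.9 cells held 29.1, 44.1 and 27.4.

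The order of the Srgn means was naive, 0.01 µM, 0.1 µM, 1.0 µM, 10 µM and P13.9, and naive was the only group that stood clear of its neighbour. The 6 pairwise dose differences lay between -0.60 and -0.11, each ± 0.25, and none was called, though 10 against 0.01 µM was called by edgeR at -0.56 and after quantile normalization at -0.79. Relative to Trac, Srgn was 18.2 ± 1.88 per 100 at 0.01 µM, against 8.99 ± 1.74 at 0.1 µM, 8.78 ± 2.38 at 1.0 µM and 8.14 ± 0.880 at 10 µM (SD, n = 3). On that scale 10 against 0.01 µM gave -1.15, 0.1 against 0.01 µM gave -1.02 and 1.0 against 0.01 µM gave -1.07, all called, so the dose difference of Srgn depends on the scale. Trac itself averaged 368 ± 33.6 at 0.01 µM and 541 to 639 at the other doses, and the P13.9 share, highest at 0.01 µM, was that of a cell that also expresses Srgn. With that share subtracted from every library, 10 against 0.01 µM gave -0.35 without a call, where the subtraction had moved the median of all genes by 0.59.

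**Figure D3:**
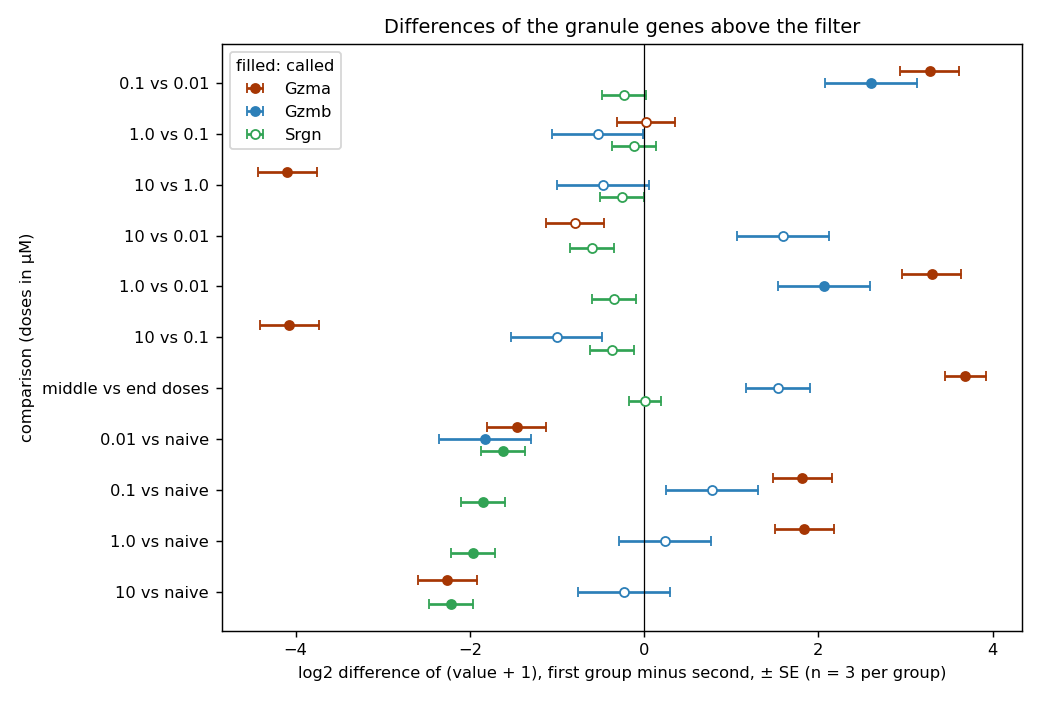
Differences of log2(value + 1), first group minus second, ± SE (horizontal axis; n = 3 per group) for Gzma, Gzmb and Srgn in 11 comparisons (rows; doses in µM). Filled points were called in the limma fit. Gzma runs from -4.10 to 3.69, and all differences of Srgn between doses lie within 0.60 of 0.

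Against naive cells, the activated cells were lower in Srgn at every dose, while Gzma was higher at the middle doses and lower at the end doses. The share of all genes called against naive cells was 49.4% with 0.01 µM, 56.3% with 0.1 µM, 54.7% with 1.0 µM and 57.1% with 10 µM, so a call in these comparisons is common. The 4 comparisons share the naive libraries. Srgn differed from naive cells by -1.62 with 0.01 µM, -1.85 with 0.1 µM, -1.97 with 1.0 µM and -2.22 with 10 µM, each ± 0.25, and by -1.07 to -1.63 in edgeR, all called. Gzma differed by -1.46, 1.82, 1.84 and -2.26 in the same order of doses, each ± 0.34 and called. At 0.01 µM that call was lost in edgeR at -0.78, in DESeq2 at -0.94 and relative to Trac at -0.78. Gzmb differed by -1.83 ± 0.53 at 0.01 µM, which was called, and by 0.78, 0.24 and -0.23 at the 3 higher doses, which were not. Relative to Trac the 0.01 µM value was -1.14 and not called. At 0.1 µM it was called by edgeR at 1.31 and after quantile normalization at 1.15. Without naive library 2 the 0.01 µM value was -1.23 and not called, and the 0.1 µM value was 1.37 and called. Without naive library 3 the values at the 3 higher doses were -0.01, -0.55 and -1.02, the last of them called. For Nkg7, the ratio of 10 µM to naive cells was 0.362 (counting interval 0.158 to 0.968).

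The naive libraries also held transcripts of other blood cells. The summed level of 10 myeloid markers was 29.8 to 82.7 over the activated groups, against 839 to 1042 in naive cells, where 8 of the 10 had reads. It was led there by S100a8 at 483 ± 69.8 and S100a9 at 339 ± 90.5. Of 11 natural killer cell markers, 3 were in the table, and their sum was 0.766 to 3.94 in activated cells, against 39.3 to 47.6 in naive cells. Of 10 mast cell and basophil markers, 5 were in the table, and their sum was 1.98 to 19.5 in activated cells, against 39.0 to 65.5 in naive cells, where Hdc at 30.2 ± 26.2 and Kit at 23.4 ± 14.6 led (SD, n = 3). P13.9 cells had a sum of 68.3 to 91.0 for that list, and 2 of its 5 genes had no read in naive cells. That sum does not mark mast cells or basophils alone. Tyrobp, an adaptor of natural killer and myeloid receptors, was 21.6 ± 1.88 in naive cells and Fcer1g, another such adaptor, 17.2 ± 9.27. The natural killer sum therefore does not mark that cell type alone. Both defining CD8 markers, Cd8a and Cd8b1, were at 0 in every naive library, which allows up to 3.45 at 3 reads over the group. Their sum reached at most 2.15 in any activated library. The part of these cells in the naive levels of the granule genes was not tested.

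The other genes of the granule pathway were taken as 110 genes in 8 lists, of which 99 were in the table and 68 were tested. The lists were chosen with earlier results of these data known. Shares called, here and below, are therefore a description and not a test of the pathway. Between 10 and 0.01 µM, 5 of the 68 rose, 8 fell and 55 did not pass. That is 19.1% called, beside 8.15% of all genes tested, and the median difference was -0.21, beside -0.03 over all genes. Relative to Trac, 19 were called, beside 1314 over all genes, whose median difference was -0.58 on that scale. Of the 19, 1 rose, the transcription factor gene Tbx21. It reached a value of 5 in all libraries of the 3 higher doses and in none at 0.01 µM or in naive cells. Having entered the fit through the groups where it is high, it is given without a test. Its means were 1.04, 7.89, 9.72 and 17.5 at doses low to high, and 3.18 in naive cells. Coro1a, an actin regulator on the docking and release list, rose by 0.92 ± 0.24 (limma adjusted p = 0.0270), with means of 137 at 10 µM and 72.7 at 0.01 µM. Bhlhe40, a transcriptional repressor of effector T cells, rose by 0.96 ± 0.24 (adjusted p = 0.0228). Relative to Trac, neither was called, at 0.37 for Coro1a and 0.42 for Bhlhe40. On the list of protease activation and inhibitors, 3 of 10 fell, with differences for the lysosomal protease Ctsl of -2.82 ± 0.62 and the lysosomal protease Lgmn of -2.19 ± 0.61 (adjusted p = 0.0108 and 0.0378). Of 12 tested genes of granule membrane and sorting, Cd63 and Lamp2 fell, with differences of -3.00 ± 0.36 and -2.12 ± 0.44 (adjusted p = 0.000146 and 0.00798), both encoding membrane proteins of lysosomes and secretory granules. Leaving out 1 library of either dose left 6 or 7 calls, all of them among the 13.

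The third gene that fell on the protease list was Serpinb9b, of the family of intracellular serpins that includes inhibitors of granzymes. It reached the minimum value of 5 in the 3 libraries at 0.01 µM and otherwise in only 1, so it entered the fit through the group where it is high and its difference is given without a test. Serpinb9b is still counted among the 8 genes that fell, so that count is partly set by the filter. Its values were 1.13, 1.37 and 0.383 at 10 µM, against 17.4, 26.4 and 21.9 at 0.01 µM. P13.9 cells held 26.1, 36.1 and 23.9.

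These 5 falling genes were all expressed by P13.9 cells, at means of 468 for Cd63, 192 for Ctsl, 74.0 for Lgmn, 55.9 for Lamp2 and 28.7 for Serpinb9b. The P13.9 share of that level at 0.01 µM exceeded what was measured there for 3 of them. It came to 167 against a measured 99.5 for Cd63, 68.6 against 33.9 for Ctsl and 26.4 against 12.7 for Lgmn, and to 19.9 against 20.9 for Lamp2. Subtracting it left every 0.01 µM library at 0 for the first 3 genes, so the sign of their dose difference after subtraction is fixed and is not read. For Lamp2 it left 1 library at 0, and the sign rests on the size of the estimated share and is not read either. For Serpinb9b the share came to 10.2 of 21.9, and the difference after subtraction was -3.19.

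**Figure D4:**
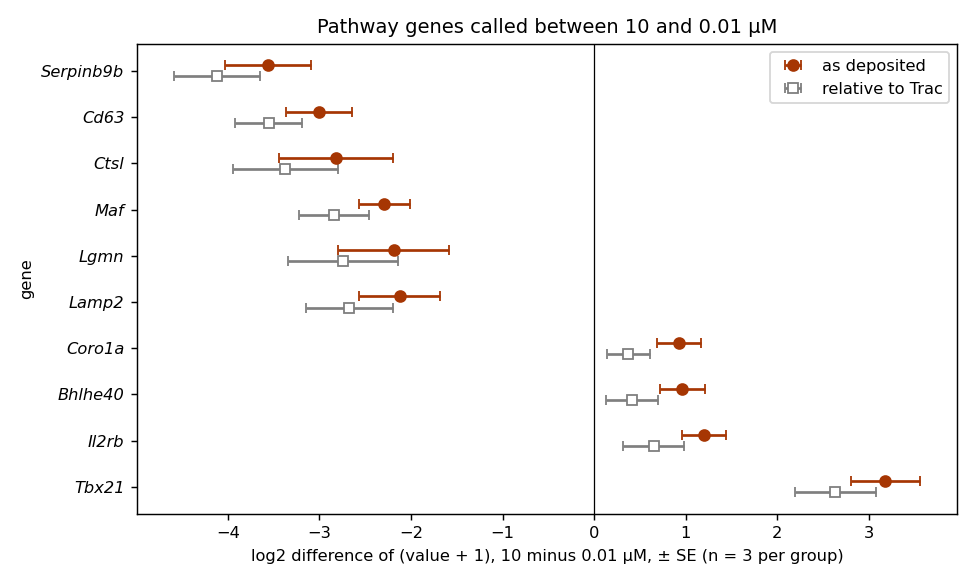
Difference of log2(value + 1), 10 minus 0.01 µM, ± SE (horizontal axis; n = 3 per group) for the 10 pathway genes (rows) called in this comparison and allowed by the naming rule. Filled circles are the deposited values and open squares the values relative to Trac. Serpinb9b entered the fit through the 0.01 µM group and Tbx21 through the 3 higher doses, so their points are a description and not a test. Cd63 lies at -3.00 as deposited and at -3.55 relative to Trac, and Coro1a and Bhlhe40 lie nearer to 0 relative to Trac, at 0.37 and 0.42.

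At the first dose step, 0.1 against 0.01 µM, 5 of the 68 pathway genes rose, 2 fell and 61 did not pass, which is 10.3% called, beside 5.59% of all genes. Relative to Trac, 28 were called, beside 2240 over all genes, whose median difference was -0.84 on that scale. Of the 28, 1 rose, again Tbx21. Coro1a rose by 1.26 ± 0.24 (limma adjusted p = 0.00991), Bhlhe40 by 0.93 ± 0.24 (adjusted p = 0.0377) and Ltb, the gene of the membrane partner of lymphotoxin alpha, by 1.18 ± 0.24 (adjusted p = 0.0130). Relative to Trac none of these 3 was called, at 0.47, 0.15 and 0.39. Between middle and end doses 3 of 68 were called, 4.41% beside 0.757% of all genes, and none of these 3 was called relative to Trac. Ltb was one, with a difference of 0.82 ± 0.17 (adjusted p = 0.0355). The other two were the transcription factor genes Id2, at 1.09 ± 0.15, and Maf, at 1.03 ± 0.20 (adjusted p = 0.00343 and 0.0258). Maf was low at 10 µM alone, at 3.39, 2.06 and 3.83, against 13.5 to 25.1 over the libraries of the 3 other doses. Per 100 of Trac, Id2 averaged 32.4, 32.0, 46.1 and 18.8 at doses low to high. Id2 and Maf were also the 2 of 68 pathway genes called at the last step, 10 against 1.0 µM, which is 2.94% beside 0.0826% of all genes. They differed by -1.39 ± 0.22 and -2.30 ± 0.28 (limma adjusted p = 0.0156 and 0.00254). Relative to Trac neither was called at that step, at -1.21 and -2.12. The first and the last step both cross the 2 runs of sample numbers. The 7 calls at the first step ranged from 0, without library B at 0.01 µM, to 13, without naive library 1. The 3 middle-dose calls ranged from 1, without most single activated libraries, to 6, without naive library 1 or 3. The 2 calls at the last step were 1 without library A or B of 1.0 or 10 µM.

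Of the granzyme family, only Gzmc and Gzmd of the 8 further genes listed were in the table, and neither passed the filter. Gzmc, beside Gzmb on chromosome 14 at 56231397 to 56241647, had 16 reads with 0.01 µM, 5 with 0.1 µM, 9 with 1.0 µM and 27 with 10 µM, and none in naive or P13.9 cells. The ratio of 10 to 0.01 µM was 1.91, with a counting interval of 0.995 to 3.80. These neighbouring granzyme genes are close copies, so reads counted to Gzmc may be shared among them. Ctsc, whose product activates granzymes by removing a dipeptide, averaged between 6.07 and 9.17 over the 4 doses and 12.02 ± 3.79 in naive cells. Rab27a and Unc13d, needed for granule docking and priming, stayed between group means of 3.63 and 7.10 at every dose.

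Against naive cells, 9 of the 68 pathway genes rose, 22 fell and 37 did not pass at 10 µM, and 14 rose, 13 fell and 41 did not pass at 0.01 µM. The shares called were 45.6% and 39.7%, beside 57.1% and 49.4% of all genes. Klrk1, Xylt1, Vamp2, Zeb2 and Tox reached a value of 5 only in naive libraries, so they entered the fit by being high there. The split into rises and falls is therefore partly set by the filter. Relative to Trac, 13 of 28 called genes rose at 10 µM and 23 of 30 at 0.01 µM. Over all genes that scale called 3994 and 3876, and it put the median difference at 0.07 and 0.71, so the split moves with the scale. Cst7, the gene of cystatin F, an inhibitor of the cathepsins that process granzymes, rose by 1.43 ± 0.33 at 10 µM (limma adjusted p = 0.00174). Its means were 14.1 with 0.01 µM, 24.1 with 0.1 µM, 23.1 with 1.0 µM and 18.4 with 10 µM, against 7.11 in naive cells, and P13.9 cells had 1 read. The naive means of the next 2 genes and of Cst7 rest on 5 to 7 reads each. Vamp8, a fusion protein of granule release, rose by 1.40 ± 0.30 and Serpinb6a, an intracellular serpin, by 1.97 ± 0.26 at 10 µM (adjusted p = 0.00114 and 1.33e-05). The chemokine gene Ccl5 fell, with a difference of -2.07 ± 0.36 (adjusted p = 0.000158). Klrk1, which encodes the receptor NKG2D, Xylt1, which starts glycosaminoglycan chains, and Lyst, the granule-size gene affected in beige mice, passed the filter through the naive libraries, where they are high, and are given without a test. Klrk1 had 1 read at 10 µM and 19 in naive cells. Xylt1 averaged 1.08 ± 0.666 at 10 µM and 6.95 ± 0.741 in naive cells, and Lyst 1.65 ± 0.658 at 10 µM and 14.2 ± 5.98 in naive cells (SD, n = 3). These lower values stood beside the marker levels of other blood cells in the naive libraries described above. The part of those cells was not tested.

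The genes whose pattern was most like a granule gene were ranked by Pearson correlation of log2 values over the 15 T cell libraries, among 1438 tested genes whose mean reached 20. For Gzma these were Id2 at 0.90, Bcl3 at 0.81, Crip1 at 0.80, Basp1 at 0.78 and Npc2 at 0.76. Basp1, a membrane-bound protein gene, had means of 4.07, 38.3, 52.9 and 11.3 at doses low to high. Over the 12 activated libraries alone, Eeig1 led at 0.98, with means of 47.6, 92.8, 79.0 and 41.4 at doses low to high. For Gzmb they were Rpl39-ps at 0.89, Itgb7 at 0.88, Bhlhe40 at 0.85, Eno1 at 0.83 and Kcnn4 at 0.82. Itgb7, an integrin chain gene, had means of 9.65, 28.3, 28.4 and 22.3 at doses low to high. For Srgn they were Calm2 at 0.97, Tnfaip3 at 0.97, Tgoln1 at 0.96, Prdx6 at 0.96 and Fosl2 at 0.95. Over the activated libraries alone Calm2 had 0.89 and Fosl2 0.54, so the likeness to Srgn of the last of these rested largely on the naive libraries. Libraries of a group share their dose and all genes of a library share its depth, and Prf1, Nkg7 and Ctsw had too few reads for such a ranking.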

How the data were processed

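Per the labels' protocols, the Lexogen QuantSeq kit was used, which reads transcript 3′ ends. The authors deposited 1 table of normalized signal values, scaled by median of ratios, per the file headers. FastQC 0.11.8, STAR 2.6.1d, HTSeq 0.9.1, DESeq2 and the mm10 build are named, per the submitters' processing notes. For annotation and strand setting, nothing is stated (not given in the sources used here), so antisense or overlapping reads cannot be told apart.

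Of 15808 features, 111 without a gene name were left out. Their reads were 12.5% to 15.7% of the naive libraries and 1.94% to 5.36% of the others. Whole reads were recovered from the steps in the values: 99.99965% of 284544 values were whole within 1e-05 reads, and the 1 exception was Tbx21 in a naive library. These reads served for counting intervals and for edgeR 4.0.16 and DESeq2 1.42.0, run as alternatives.

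The main test was limma 3.58.1 in R 4.3.3 with a trended prior variance on log2(value + 1) over the 15 naive and activated libraries, adjusted by Benjamini-Hochberg over 7263 genes. The scale understates differences of low genes. The fit was also run on simulated counts with a single dispersion and changes only in genes of higher mean, which does not cover low genes. On recovered reads, edgeR called 2528 genes for 10 against 0.01 µM, where limma called 592. The naive and P13.9 columns carry numbers and the labels letters, so they were assigned by group. The members, gene lists and tests were chosen with earlier results of these data known. Pathway genes could be named if among the 4 with the smallest adjusted p of their list in a comparison. Zeb2, Runx1 and Tcf7, called between 10 and 0.01 µM, fell outside that rule, while Ctsc, Gzmc, Gzmd, Rab27a and Unc13d were added for their known roles after their values were seen.

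No pairing of the libraries by replicate letter was detected, which does not show that there was none. Over 18 same-letter pairs of dose groups, deviations correlated from -0.197 to 0.199, and 3 pairs exceeded 0.1. Alternatives were other pseudocounts, filters, tests and scalings, a replicate block, the 4 doses alone, subtraction of the P13.9 share, leaving out each library and, added after seeing the data, values relative to Trac. Protein sequences were not used here.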

Additional observations from a re-analysis of the deposited data

How the results depend on the processing

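Over the settings named in the methods, all 16 called differences of Gzma, Gzmb and Srgn kept their direction and 12 were called in every one of them. Relative to Trac, which was added later, 3 of the 16 lost the call, Gzma at 0.01 µM against naive (-0.78), Gzmb there (-1.14) and Gzmb for 1.0 against 0.01 µM (1.34). Of all 33 differences, 27 kept 1 direction. The other 6 were not called as reported, and 2 of them were called elsewhere, Gzmb against naive at 0.1 µM (1.31 by edgeR, 1.15 after quantile normalization, 1.37 without naive library 2) and at 10 µM (-1.02 without naive library 3). The depth of the naive libraries limits the granule genes there to 19 reads of Gzma and 14 of Gzmb. The fit of the 12 activated libraries alone made more pathway calls, and more calls over all genes, in the 4 dose comparisons given below. Where the cause of a change is not plain from how an alternative was built, it was not tested.

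As given in the methods, no pairing by replicate letter was detected. With the letter as a replicate block over the 12 activated libraries, the granule genes called were 2 for 10 against 0.01 µM and 2 for middle against end doses, and the pathway genes called were 26 and 12, with 21 for 0.1 against 0.01 µM and 4 for 10 against 1.0 µM. Over all genes that fit called 1739, 417, 1427 and 40 in the same order, where 592, 55, 406 and 6 were called as reported. No paired fit with naive cells was possible because their columns carry no letter.

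For 10 against 0.01 µM, 0 granule genes were called as reported, 3 by edgeR, 2 with the doses alone or after quantile normalization, 2 relative to Trac, and 1 by DESeq2 or with the P13.9 share subtracted. For 0.01 µM against naive, 3 were called as reported and 1 relative to Trac. For middle against end doses, 1 was called as reported and 2 under a minimum value of 20, edgeR, DESeq2, the doses alone, P13.9 subtraction or quantile normalization. Leaving out 1 library gave 0 to 1 for 10 against 0.01 µM, 1 to 2 for 0.1 against 0.01 µM and 1 to 2 for middle against end doses. Calls over all genes moved as well. For 10 against 0.01 µM they were 592 as reported, 2528 by edgeR, 2330 by DESeq2, 1954 with the doses alone and 1314 relative to Trac. For 0.01 µM against naive they were 3587 as reported and 3876 relative to Trac. The changed granule counts are therefore not a result about these genes alone.

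Pathway genes called for 10 against 0.01 µM were 13 as reported, 8 at a minimum value of 20, 27 by edgeR, 24 by DESeq2, 28 with the doses alone and 6 to 18 leaving out 1 library. For 0.1 against 0.01 µM they were 7, with 23 by edgeR, 19 by DESeq2, 21 with the doses alone and 0 to 13 leaving out 1 library. For 10 against 1.0 µM they were 2, with 7 by edgeR, 6 by DESeq2, 5 with the doses alone, 1 after P13.9 subtraction or quantile normalization and 1 to 2 leaving out 1 library. For middle against end doses they were 3, with 1 without a filter, 18 by edgeR or DESeq2, 15 with the doses alone, 7 after P13.9 subtraction and 1 to 6 leaving out 1 library. Against naive cells the counts were 27 at 0.01 µM and 31 at 10 µM, and 17 in both at a minimum value of 20. Among the 27, 14 rose as reported, 19 of 26 by edgeR, 17 of 25 by DESeq2 and 4 of 30 after P13.9 subtraction. The median of all genes was moved there by 0.36, 0.24 and -0.71 in the order of these 3 alternatives. Among the 31, 9 rose as reported, 17 of 29 by edgeR, 13 of 25 by DESeq2 and 15 of 30 after quantile normalization. Here the median of all genes was moved by 0.40, 0.34 and 0.27. Relative to Trac, pathway calls were 28 for 0.1 against 0.01 µM, 0 for 10 against 1.0 µM and 8 for middle against end doses, none of the 8 higher. Over all genes that scale gave 2240, 2 and 632 calls, with median differences of -0.84, 0.17 and -0.52. Arf6 at 0.01 µM against naive turned to 0.0458 on it. Over all 7263 genes tested, calls for 10 against 0.01 µM were 592 as reported, 2528 by edgeR, 2330 by DESeq2 and 1954 with the doses alone. For 0.1 against 0.01 µM they were 406, 1746, 1545 and 1661 in the same order. For 10 against 1.0 µM they were 6, 175, 182 and 86, and for middle against end doses 55, 611, 570 and 552. More pathway calls under these settings therefore stood beside more calls over all genes.

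Subtracting the P13.9 share turned the sign for 10 against 0.01 µM of Ctsl to 0.24, Lgmn to 0.48, Cd63 to 0.91 and Lamp2 to 0.95. It brought Cd63 to 0 for 0.1 against 0.01 µM. For 0.01 µM against naive cells it brought Ctsl to 0, Serpinb6a to -1.08, Cd63 to -1.53 and Ap3d1 to -1.40. Where the share exceeds the measured level the value is set to 0. This was so in every 0.01 µM library for Ctsl, Lgmn, Cd63 and Serpinb6a, so their signs are fixed by the subtraction. Lamp2 and Ap3d1 each had 1 such library at 0, with shares of 19.9 of 20.9 and 14.5 of 15.1. Their signs rest on the size of the estimated share and are not read, though Ap3d1 was called after subtraction. That subtraction moved the median of all genes by 0.59 for 10 against 0.01 µM, and edgeR moved it by 0.36 to 0.41 against naive cells.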
